A study of Mus musculus with 6 samples.

Results

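Iron storage, uptake and export were followed in murine keratinocyte lines through 10 of the 24982 genes listed, namely *Fth1*, *Ftl1*, *Ncoa4*, *Tfrc*, *Steap3*, *Slc11a2*, *Slc40a1*, *Aco1*, *Ireb2* and *Hmox1*. The set was chosen on the coverage of *Fth1* and *Tfrc*, which was lower in DKSFM cells than in KSFM-Ca2+ cells in these same libraries. The difference between the lines is therefore given for all 10 genes as a description, with no test. The KSFM-Ca2+ cells were keratinocytes derived from neonatal skin of C57BL/6 mice and cultured in a keratinocyte serum-free medium with trace calcium. The DKSFM cells were descendants of the KSFM-Ca2+ cells that survived transfer to a defined keratinocyte medium, in which the paper measured more calcium. Neither line was given a further treatment. The medium, its calcium and survival of the transfer differed together with the line and cannot be told apart. RNA-seq of poly(A) RNA gave 3 replicate libraries per line, and each file lists the mean number of reads over a base of each gene, here called coverage. Coverage summed over all genes was 1601676, 1238411 and 1057750 in KSFM-Ca2+ replicates 1 to 3 and 1174348, 1239438 and 1170675 in DKSFM replicates 1 to 3. The labels do not say whether replicates came from separate cultures, so the errors measure only the spread between these libraries.

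Most mammalian cells take up iron bound to transferrin through the transferrin receptor, reduce it in the endosome and carry it into the cytosol. Iron that is not used is stored inside ferritin, a shell built from heavy and light chains, or leaves the cell through ferroportin. Iron regulatory proteins adjust these steps by binding hairpins, the iron-responsive elements, in the untranslated regions of the mRNAs: a hairpin near the start of an mRNA blocks its translation, and hairpins in the 3′ untranslated region of the transferrin receptor mRNA protect it from decay. In skin, iron taken up by keratinocytes is lost from the body when the outermost cells are shed.

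The iron-responsive elements are shown because the iron regulatory proteins act on these mRNAs through them. GENCODE M21 transcripts (build GRCm38) were searched for an unpaired C, 5 bases, the 6-base loop CAGTGN and 5 bases able to pair with the first 5, with G-T pairs allowed. Each element is printed 5′ to 3′ with 5 further bases on either side, and the capitals mark the loop.
*Fth1*, 5′ untranslated region, chr19:9982733-9982759, plus strand: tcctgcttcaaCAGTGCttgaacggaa
*Ftl1*, 5′ untranslated region, chr7:45459780-45459806, minus strand: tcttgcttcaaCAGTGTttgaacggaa
*Slc40a1*, 5′ untranslated region, chr1:45925466-45925492, minus strand: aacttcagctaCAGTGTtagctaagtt
*Tfrc*, 3′ untranslated region, chr16:32631220-32631246, plus strand: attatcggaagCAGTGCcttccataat
*Tfrc*, 3′ untranslated region, chr16:32631599-32631625, plus strand: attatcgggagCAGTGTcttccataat
*Tfrc*, 3′ untranslated region, chr16:32631664-32631690, plus strand: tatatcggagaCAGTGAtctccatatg
*Tfrc*, 3′ untranslated region, chr16:32631711-32631737, plus strand: attatcgggaaCAGTGTttcccataat
By these letters the 2 ferritin mRNAs held 1 element each, with the same upper stem, and the *Tfrc* mRNA held 4. Elements of other letters would not be found by this search. In all 20899 protein-coding genes with an annotated 5′ untranslated region, 30 (0.144%) held such letters there, and in all 21028 with a 3′ untranslated region 128 (0.609%) did. A match of letters is a description and does not show that a protein was bound in these cells.

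Both lines carried the keratinocyte markers. All 7 (*Krt5*, *Krt14*, *Trp63*, *Itga6*, *Itgb4*, *Cdh1* and *Epcam*) passed the coverage filter, and their summed normalized coverage was 17885, 18298 and 18038 in the KSFM-Ca2+ libraries and 43185, 39353 and 43546 in the DKSFM libraries, with *Krt14* the most abundant. *Krt14* and *Krt5* carried the higher sum, and *Trp63* and *Itga6* were slightly higher (log2 differences of 0.13 and 0.14), while *Epcam* (-1.501), *Itgb4* (-0.74) and *Cdh1* (-0.13) were lower in the DKSFM cells. The paper reports higher *Cdh1* expression in DKSFM cells than in the parental cells, measured by qPCR, and the discrepancy was not tested. Markers of other cells were low. Of 7 erythroid markers, the globin genes *Hbb-bs*, *Hbb-bt*, *Hba-a1* and *Hba-a2* were listed at 0 in every library, and the list, led by *Epor*, summed to 0.534, 0.396 and 0.472 in the KSFM-Ca2+ libraries and 0.425, 0.2998 and 0.318 in the DKSFM libraries. Of 7 macrophage and leukocyte markers, *Adgre1* and *Cd3e* were listed at 0, *Ptprc* and *Csf1r* were listed at no more than 0.1, and the list summed to 10.9, 11.2 and 12.6 in the KSFM-Ca2+ libraries and 13.6, 19.0 and 20.6 in the DKSFM libraries, almost all of it *Cd68*. Fibroblast markers summed to 1.14, 0.890 and 1.30 in the KSFM-Ca2+ libraries and 2.34, 2.10 and 2.23 in the DKSFM libraries, with only *Pdgfra* of 7 genes above 0. Endothelial markers, led by *Pecam1* with *Cdh5* listed at 0, summed to 2.82, 3.16 and 3.30 against 8.28, 8.29 and 7.42. Melanocyte markers, led by *Mitf* with *Dct* and *Tyr* listed at 0, summed to 4.12, 3.96 and 4.60 against 17.3, 18.7 and 18.3. The higher sum was *Mitf* alone, with means of 3.51 and 17.7, since *Pmel* (0.594 and 0.343), *Tyrp1* (0.051 and 0.033) and *Mlana* (0.066 and 0) were lower. These sums were higher in the DKSFM libraries for every list but the erythroid one, and their part in the differences below was not tested.

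The ferritin heavy chain gene *Fth1* (chromosome 19 from 9980600 to 9985111) encodes the ferritin subunit that oxidizes iron for storage. Its normalized coverage was 16768, 17149 and 18516 in the KSFM-Ca2+ libraries and 1445, 1443 and 1443 in the DKSFM libraries. The 2 lines did not overlap, and the lowest KSFM-Ca2+ library lay far above every DKSFM library. The mean was 17478 ± 919 (SD, n = 3) in the KSFM-Ca2+ cells and 1444 ± 1.19 in the DKSFM cells, 12.1-fold lower, a log2 difference of -3.60 (SE 0.04) on the scale of log2(normalized coverage + 0.1). As bulk RNA was measured, fewer cells making a transcript and less of it per cell cannot be told apart. *Fth1* had the rank 2 of all genes by coverage in every KSFM-Ca2+ library and the ranks 112, 107 and 109 in the DKSFM libraries. It took 1.37%, 1.40% and 1.48% of the summed coverage in the KSFM-Ca2+ libraries and 0.116%, 0.117% and 0.116% in the DKSFM libraries.

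The ferritin light chain gene *Ftl1* (chromosome 7 from 45457944 to 45459886) encodes the subunit that favours the growth of the iron core. Its normalized coverage was 1169, 1184 and 1250 in the KSFM-Ca2+ libraries and 924, 898 and 930 in the DKSFM libraries. The lines did not overlap here either, but they lay close together, with a ratio of means of 1.31 and a log2 difference of -0.39 (SE 0.03). The heavy and light chains therefore differed between the lines to unequal extents. Within a library, where scaling plays no part, the ratio of *Fth1* to *Ftl1* coverage was 14.3, 14.5 and 14.8 in the KSFM-Ca2+ cells and 1.56, 1.61 and 1.55 in the DKSFM cells. The heavy chain mRNA thus exceeded the light chain mRNA by far in the KSFM-Ca2+ cells and by little in the DKSFM cells.

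The coverage of *Ftl1* is less certain than that of *Fth1*. Of the 85-base stretches of the longest *Ftl1* coding transcript, the length of a read, 66.2% also occur letter for letter in transcripts of 6 other annotated genes, 4 of them pseudogenes. For *Fth1* the share was 1.63%, all in 1 pseudogene. The authors quantified with Salmon, which assigns reads to transcripts, but how shared reads entered the coverage values is not given in the sources used here, and the ratio of the chains carries the same uncertainty.

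*Ncoa4* (chromosome 14 from 32159879 to 32179855) encodes the receptor that delivers ferritin to lysosomes for iron release. Its normalized coverage was 23.8, 23.3 and 20.5 in the KSFM-Ca2+ libraries and 17.2, 18.9 and 18.2 in the DKSFM libraries. All DKSFM libraries lay below the KSFM-Ca2+ libraries, by a log2 difference of -0.31 (SE 0.07), and 40.8% of its 85-base stretches are shared with 1 pseudogene.

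**Figure D1:**
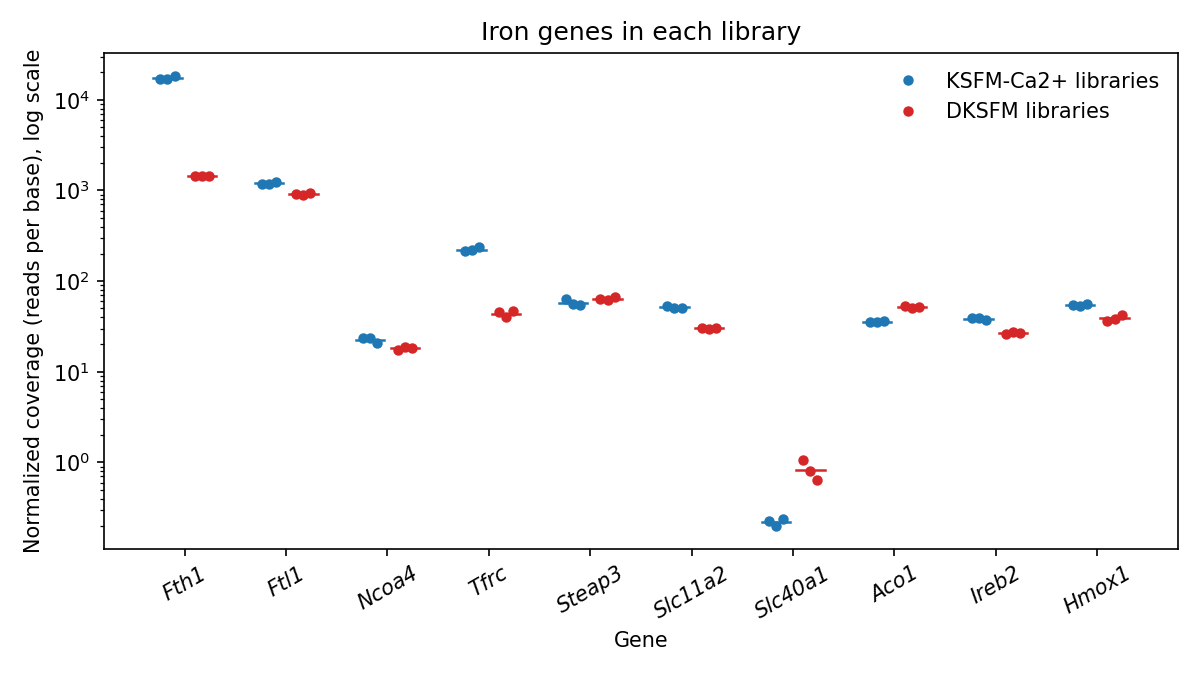
Normalized coverage of the 10 iron genes on a log axis, with a point for each library and a bar at the mean of the 3 libraries of a line. *Fth1* stood at 17478 in the KSFM-Ca2+ cells and 1444 in the DKSFM cells, *Tfrc* at 222 and 43.9, and *Steap3* was the gene whose lines overlapped.

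The transferrin receptor gene *Tfrc* (chromosome 16 from 32608896 to 32632794) encodes the receptor through which iron-loaded transferrin enters cells. Its normalized coverage was 213, 218 and 235 in the KSFM-Ca2+ libraries and 45.3, 40.0 and 46.4 in the DKSFM libraries. Every KSFM-Ca2+ library was high and every DKSFM library was low, with no overlap. The means were 222 ± 11.8 and 43.9 ± 3.46 (SD, n = 3), 5.06-fold lower in the DKSFM cells, a log2 difference of -2.34 (SE 0.06). *Tfrc* lay above 91.5% of the genes tested in the KSFM-Ca2+ cells and above 63.1% in the DKSFM cells. The ratio of *Fth1* to *Tfrc* coverage within a library was 78.8, 78.7 and 78.7 in the KSFM-Ca2+ cells and 31.9, 36.1 and 31.1 in the DKSFM cells. The ratio of *Ftl1* to *Tfrc* differed in the other direction, at 5.41 ± 0.0944 in the KSFM-Ca2+ cells and 21.0 ± 1.33 in the DKSFM cells. The receptor mRNA was thus lower relative to light chain mRNA and higher relative to heavy chain mRNA in the DKSFM cells.

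Downstream of the receptor, the genes of the endosomal steps differed less. *Steap3* (chromosome 1 from 120226414 to 120271081), the endosomal ferrireductase, had normalized coverage values of 63.3, 56.5 and 54.4 in the KSFM-Ca2+ libraries and 63.9, 61.7 and 66.2 in the DKSFM libraries. This was the only member whose lines overlapped, since KSFM-Ca2+ replicate 1 lay within the DKSFM range, and its log2 difference was 0.14 (SE 0.06). *Slc11a2* (chromosome 15 from 100387898 to 100424209), the transporter that moves ferrous iron out of the endosome, had 53.0, 50.5 and 50.9 in the KSFM-Ca2+ libraries and 30.4, 29.7 and 30.1 in the DKSFM libraries. Its lines were well apart, with a log2 difference of -0.77 (SE 0.04). No iron-responsive element of the letters searched was found in the untranslated regions of its annotated transcripts, which says only that these letters are not there. Relative to *Tfrc*, *Steap3* coverage was 0.263 ± 0.0334 in the KSFM-Ca2+ cells and 1.46 ± 0.0727 in the DKSFM cells, and *Slc11a2* coverage was 0.232 ± 0.0166 and 0.687 ± 0.0493.

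Export was close to the limit of what the files can show. The ferroportin gene *Slc40a1* (chromosome 1 from 45908070 to 45926532), the known cellular iron exporter, had a listed coverage of 0.3, 0.2 and 0.2 in the KSFM-Ca2+ libraries, against 1, 0.8 and 0.6 for DKSFM. All 3 DKSFM values were higher, but the files are written in steps of 0.1, so a KSFM-Ca2+ value stands on 2 or 3 steps. *Slc40a1* passed the coverage filter through the DKSFM libraries alone and so had to differ. Its log2 difference was 1.52 (SE 0.25) with the 0.1 added before taking logs and 0.58 with 1 added. In both lines it was the least covered of the 10 genes, with means of 0.221 ± 0.0203 and 0.832 ± 0.215.

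The genes of the iron regulatory proteins differed in opposite directions. *Aco1* (chromosome 4 from 40143265 to 40199009) encodes the protein that is an aconitase when it holds an iron-sulfur cluster and an RNA-binding protein when it does not. It had normalized coverage values of 35.8, 35.5 and 35.9 in the KSFM-Ca2+ libraries and 53.4, 49.96 and 52.1 in the DKSFM libraries. *Ireb2* (chromosome 9 from 54862658 to 54912534), whose protein is degraded when iron is plentiful, had 38.8, 39.6 and 37.2 in the KSFM-Ca2+ libraries and 25.8, 27.3 and 26.7 in the DKSFM libraries. *Aco1* was thus higher and *Ireb2* lower in every DKSFM library, with log2 differences of 0.53 (SE 0.04) and -0.53 (SE 0.04). The ratio of *Aco1* to *Ireb2* within a library was 0.923, 0.898 and 0.965 in the KSFM-Ca2+ cells and 2.07, 1.83 and 1.95 in the DKSFM cells.

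**Figure D2:**
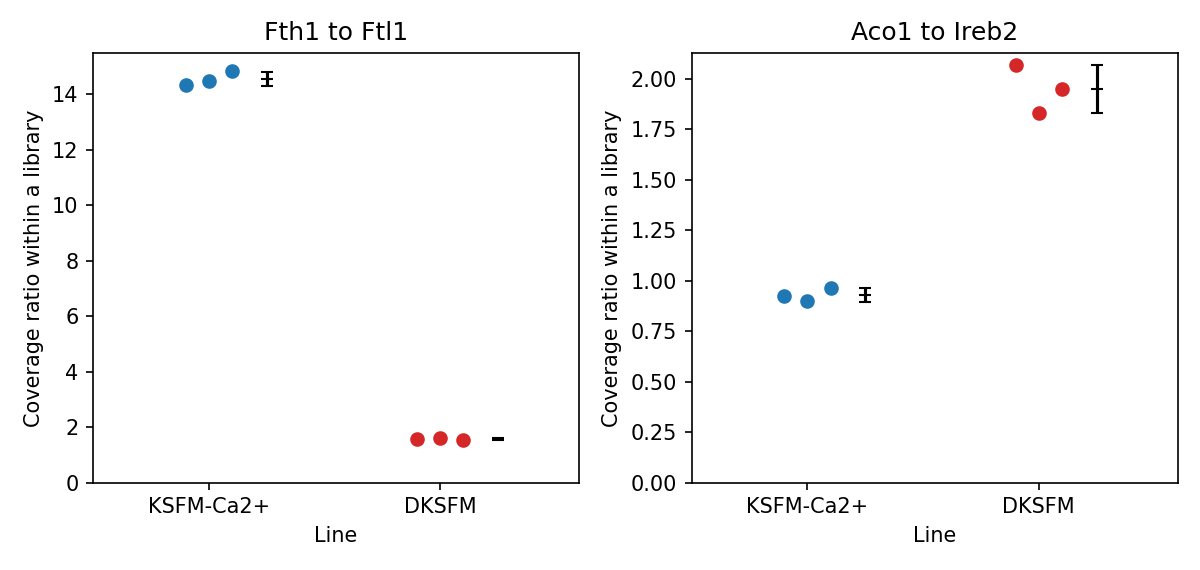
Ratio of the listed coverage of *Fth1* to *Ftl1* and of *Aco1* to *Ireb2* within each library, with a point for each library and a black mark for the mean ± SD of the 3 libraries of a line. The first ratio was 14.5 ± 0.246 in the KSFM-Ca2+ cells and 1.57 ± 0.0283 in the DKSFM cells, and the second was 0.929 ± 0.0341 and 1.95 ± 0.119.

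*Hmox1* (chromosome 8 from 75093618 to 75100593) encodes the inducible heme oxygenase, which frees iron from heme. Its normalized coverage was 55.1, 52.9 and 56.0 in the KSFM-Ca2+ libraries and 36.2, 38.6 and 42.1 in the DKSFM libraries. The DKSFM libraries were lower without overlap, by a log2 difference of -0.49 (SE 0.06).

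By level, *Fth1* and *Ftl1* stood first and second in both lines, and the rest of the order differed. In the KSFM-Ca2+ cells *Tfrc* followed, then *Steap3*, *Hmox1* and *Slc11a2*, whose neighbours in the order overlapped, then *Ireb2*, *Aco1*, *Ncoa4* and *Slc40a1*, which did not overlap. In the DKSFM cells *Steap3* and *Aco1* stood above *Tfrc*, which overlapped *Hmox1*, followed by *Slc11a2*, *Ireb2*, *Ncoa4* and *Slc40a1*, which did not overlap. Coverage is per base, so these levels compare genes of different length.

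Counted over the 10 members, 7 were lower and 3 higher in the DKSFM cells, and 9 did not overlap between the lines. Across all 12409 genes tested, 83.3% did not overlap. Of all genes tested, 2943 (23.7%) were called, that is, had a Benjamini-Hochberg adjusted p under 0.01 in limma and differed by at least 2-fold, 1636 (13.2%) of them higher and 1307 (10.5%) lower in the DKSFM cells. The split depends on the processing: quantile normalization gave 1461 higher and 1486 lower, and a filter of 0.5 in every library gave 1032 higher and 955 lower. No call is given for the members, which were chosen on this contrast, and nothing is read from their counts. The median log2 difference was -0.44 over the members and -0.0012 over all genes tested.

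**Figure D3:**
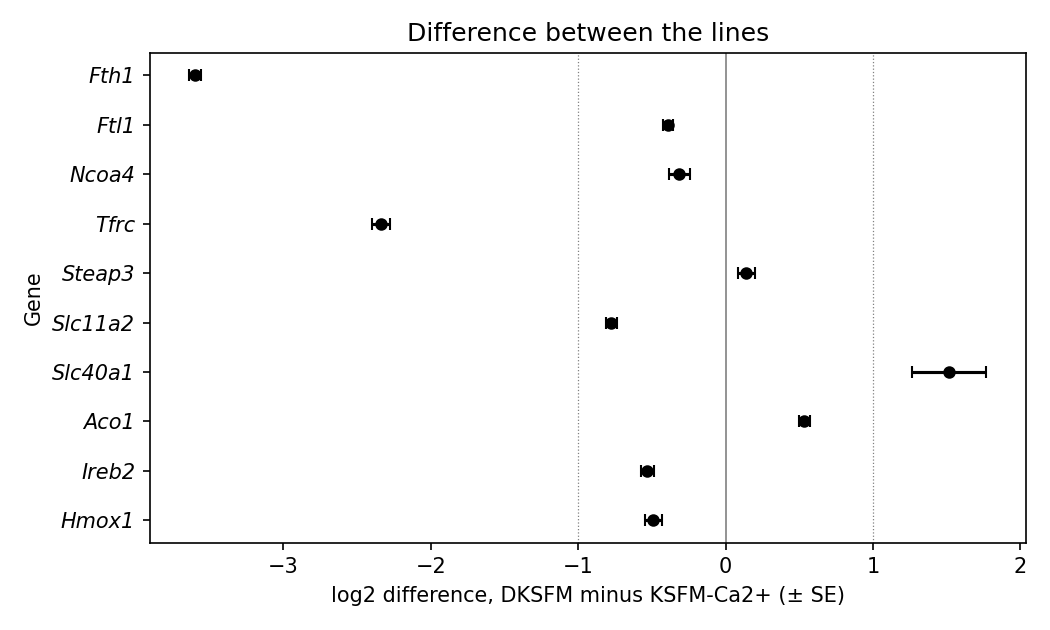
Difference between the lines for the 10 iron genes, in log2 units of normalized coverage + 0.1, DKSFM minus KSFM-Ca2+, with bars for the SE from the fit across all genes and dotted lines at 2-fold. *Fth1* (-3.60) and *Tfrc* (-2.34) lay furthest to the lower side and *Slc40a1* (1.52) to the higher side, where the bar is widest (SE 0.25).

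The files of KSFM-Ca2+ replicate 3 and of all DKSFM replicates carry the word combined, which the labels do not explain, so this mark cannot be told apart from the line for the remaining KSFM-Ca2+ libraries. Against KSFM-Ca2+ replicate 3 alone, the log2 difference was -3.68 for *Fth1* and -2.42 for *Tfrc*.

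The members lie on 9 chromosomes, and all other tested genes around each were described by their median and by the nearest gene on either side. Within a window of 20 Mb around *Fth1*, the median log2 difference of 228 other tested genes was -0.034, and the nearest tested genes on either side were *Incenp* at -1.08 and *Rab3il1* at 2.56. Around *Tfrc*, 101 genes had a median of 0.058, with *Pcyt1a* at 1.24 and *Tnk2* at 0.078 as the nearest. The medians around *Fth1* and *Tfrc* were near that of all genes, while their nearest genes were not of a kind. Around *Ftl1*, 135 genes had a median of 0.55, but the nearest genes were *Gys1* at -0.36, close to *Ftl1* itself, and *Bax* at 0.45. Around *Ireb2*, the median of 141 genes was -0.40, and the nearest were *Wdr61* at 0.030 and *Psma4* at -0.45. The surroundings of *Slc40a1* had a median of -0.51 over 78 genes, with *Wdr75* at -0.40 and *Slc39a10* at 0.72 as the nearest. For *Steap3* the median of 30 genes was -0.56, with *3110009E18Rik* at -0.72 and *Insig2* at 0.42 on either side. In these last 2 cases the median was opposite in sign to the member and 1 of the nearest genes had the sign of the member. The other members' surroundings had medians of -0.25 (*Hmox1*, between *Tom1* at 0.16 and *Mcm5* at -1.24), -0.17 (*Ncoa4*, between *Oxnad1* at -0.74 and *Timm23* at -0.34), -0.049 (*Slc11a2*, between *Mettl7a1* at 3.48 and *Letmd1* at 0.062) and 0.10 (*Aco1*, between *1700009N14Rik* at -2.65 and *Ddx58* at -0.063).

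The genes most like *Fth1* and *Tfrc* were sought among 8674 other tested genes with a mean of at least 10, by the root mean square distance between log2 values over the 6 libraries after centring each gene on its own mean. Nearest to *Fth1* were *Mlkl*, the effector of necroptosis, at a distance of 0.060, *Procr*, the endothelial protein C receptor, at 0.094, and *Slc4a4*, a sodium bicarbonate cotransporter, at 0.11. *Mlkl* averaged a normalized coverage of 204 ± 9.33 in the KSFM-Ca2+ cells and 18.2 ± 0.294 in the DKSFM cells, at a level far below that of *Fth1*. Nearest to *Tfrc* were *Acot7*, an acyl-CoA thioesterase, at 0.018, *Retreg1*, a receptor for autophagy of the endoplasmic reticulum, at 0.036, and *Tubb6*, a beta-tubulin, at 0.037. *Acot7* had 186 ± 6.62 and 37.4 ± 3.05, close to *Tfrc* in level as well. Over 6 libraries such likeness is mostly the difference between the lines.

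The wider iron pathway was read from 7 lists that hold no member, with 89 genes in the files, of which 76 passed the filter. Of these, 7 were called higher and 9 lower in the DKSFM cells by limma's test across all genes, and 60 were not called. The share called was 21.1%, 9.21% higher and 11.8% lower, beside 23.7%, 13.2% and 10.5% of all genes tested. Of the 7 higher, 2 passed the filter through the DKSFM libraries alone, and 5 were called higher with 0.5 required in every library. Their median log2 difference was -0.0006, against -0.0012 over all genes tested.

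Among 12 tested uptake genes, 3 (25%) were called lower and 3 (25%) higher, beside 10.5% and 13.2% of all genes tested. The lower ones act on iron outside the transferrin receptor or beside it: *Steap1* and *Steap2*, relatives of *Steap3* in the family of metalloreductases, and *Lcn2*, lipocalin 2, which binds iron-carrying siderophores. *Steap2* fell from 187 ± 5.86 to 27.6 ± 1.04 in normalized coverage (log2 difference -2.76, SE 0.04, adjusted p = 1.01e-09, limma). *Steap1* fell from 100.01 ± 10.4 to 10.4 ± 1.40 (log2 difference -3.26, SE 0.10, adjusted p = 3.92e-08, limma). *Lcn2* fell from 83.0 ± 4.14 to 12.7 ± 1.13 (log2 difference -2.71, SE 0.07, adjusted p = 1.27e-08, limma). All DKSFM libraries lay below all KSFM-Ca2+ libraries in these 3 genes, unlike in *Steap3*. As genes called lower they were likely not to overlap, and 83.3% of all genes tested did not overlap in either direction. *Steap4*, of the same family as *Steap1* and *Steap2*, was not called, at 32.3 ± 2.13 and 27.2 ± 0.999 (log2 difference -0.24, SE 0.06). The endocytic receptor gene *Lrp1* rose from 1.75 ± 0.322 to 11.9 ± 0.431 (log2 difference 2.71, SE 0.13, adjusted p = 3.64e-07, limma). *Slc39a8*, a metal transporter of the ZIP family, was listed at 0 in the KSFM-Ca2+ libraries and had a normalized coverage of 1.80, 1.70 and 1.06 in the DKSFM libraries. *Hfe*, whose protein binds the transferrin receptor, had 0.457, 0.198 and 0.354 in the KSFM-Ca2+ libraries and 0.743, 1.10 and 0.954 in the DKSFM libraries, and it was named after its values were seen. Both genes passed the coverage filter through the DKSFM libraries alone and so had to differ, and their calls are not support for a difference. The call of *Hfe* was also lost without DKSFM replicate 2 (adjusted p = 0.0164, limma) and without DKSFM replicate 3 (adjusted p = 0.0138, limma). Among other settings, quantile normalization lost it too (log2 difference 0.81), as did adding 0.5 (0.78) or 1 (0.53) before taking logs. The transferrin gene *Trf* itself and the receptor gene *Tfr2* were listed at 0 in every library.

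None of the 5 tested storage and turnover genes was called, since none differed by 2-fold, and their median log2 difference was 0.39. The most abundant, *Pcbp2*, an iron chaperone for ferritin, was the one that was lower in the DKSFM cells, at 926 ± 21.1 in the KSFM-Ca2+ cells and 780 ± 14.7 in the DKSFM cells (log2 difference -0.25, SE 0.03, adjusted p = 6.35e-05, limma). The other 4 were higher without overlap between the lines, beside 83.3% of all genes tested whose lines did not overlap in either direction. *Tax1bp1*, an autophagy receptor known to act on ferritin with *Ncoa4*, had 270 ± 3.52 and 472 ± 9.78 (log2 difference 0.81, SE 0.03, adjusted p = 4.81e-08, limma). *Fbxl5*, which directs the *Ireb2* protein to degradation when iron is plentiful, had 89.2 ± 3.03 and 152.9 ± 4.43 (log2 difference 0.78, SE 0.04, adjusted p = 3.21e-07, limma). *Herc2* and *Pcbp1* had log2 differences of 0.39 and 0.30. These 4 genes were named after their values were seen. In this list only *Ftmt*, mitochondrial ferritin, did not pass the filter.

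Of the 6 tested genes of export and systemic control, 1 (16.7%) was called in each direction. The shares of all genes tested were 13.2% higher and 10.5% lower, so nothing is read from these counts. *Cp* encodes ceruloplasmin, the copper ferroxidase that oxidizes iron as it leaves through ferroportin, and it had normalized coverage values of 64.3, 62.9 and 56.4 in the KSFM-Ca2+ libraries and 2.76, 2.70 and 2.86 in the DKSFM libraries. It was 22.1-fold lower in the DKSFM cells (log2 difference -4.41, SE 0.07, adjusted p = 1.08e-09, limma). The related ferroxidase gene *Hephl1* was not called, at 7.54 ± 0.320 and 6.66 ± 0.352, and *Heph* was listed at 0. *Abcg2*, which exports heme and many other compounds, rose from 0.863 ± 0.143 to 8.52 ± 1.49 (log2 difference 3.16, SE 0.17, adjusted p = 6.05e-07, limma). The hepcidin gene *Hamp* did not pass the filter.

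In heme metabolism, 1 of 13 tested genes (7.69%) was called in each direction, beside 13.2% higher and 10.5% lower of all genes tested. *Abcb6*, a porphyrin transporter, rose from 1.49 ± 0.160 to 5.83 ± 0.868 (log2 difference 1.89, SE 0.14, adjusted p = 4.03e-06, limma). *Blvra*, biliverdin reductase, which acts after heme oxygenase, fell from 64.5 ± 2.81 to 31.2 ± 1.78 (log2 difference -1.05, SE 0.05, adjusted p = 4.85e-07, limma), just past 2-fold, and without DKSFM replicate 3 it was just under it (-0.998).

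Mitochondrial iron and iron-sulfur cluster genes all passed the filter, and 3 of 28 (10.7%) were called, each lower, beside 10.5% of all genes tested called lower. *Slc25a37*, mitoferrin, which brings iron into mitochondria, fell from 20.8 ± 0.310 to 9.09 ± 0.345 (log2 difference -1.19, SE 0.05, adjusted p = 2.46e-07, limma). *Hspa9*, the mitochondrial chaperone that helps pass clusters on, fell from 1011 ± 5.74 to 477 ± 16.9 (log2 difference -1.08, SE 0.03, adjusted p = 2.01e-08, limma). *Fam96b*, a targeting factor of the cytosolic cluster machinery, lay at the threshold with a log2 difference of -1.004 (SE 0.04, adjusted p = 6.28e-08, limma). It fell short of 2-fold without KSFM-Ca2+ replicate 3 (-0.98), without DKSFM replicate 1 (-0.99) and without DKSFM replicate 2 (-0.99). The median over the list was -0.15, and 25 genes were not called.

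Of the 4 other mRNAs reported to carry an iron-responsive element, 1 (25%) was called, about the share of all genes tested (23.7%). *Epas1*, which encodes the hypoxia-inducible factor HIF-2α, had normalized coverage values of 1.30, 0.791 and 1.30 in the KSFM-Ca2+ libraries and 105, 99.5 and 108 in the DKSFM libraries. It went from near the filter to a level above 81.6% of the genes tested (log2 difference 6.44, SE 0.17, adjusted p = 1.28e-08, limma).

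Genes of the Nrf2 and Bach1 axis, through which the ferritin genes and *Hmox1* are known to be induced, were called in 2 of 8 cases, 1 in each direction. *Gclc*, the catalytic subunit of the enzyme that starts glutathione synthesis, rose from 107 ± 2.18 to 397 ± 14.1 (log2 difference 1.89, SE 0.03, adjusted p = 2.33e-09, limma). *Slc7a11*, the cystine importer that supplies this synthesis, fell from 24.7 ± 0.371 to 6.15 ± 0.798 (log2 difference -2.00, SE 0.09, adjusted p = 2.82e-07, limma). The share called was 25% (12.5% in each direction), about that of all genes tested (23.7%). *Nqo1* did not pass the filter.

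**Figure D4:**
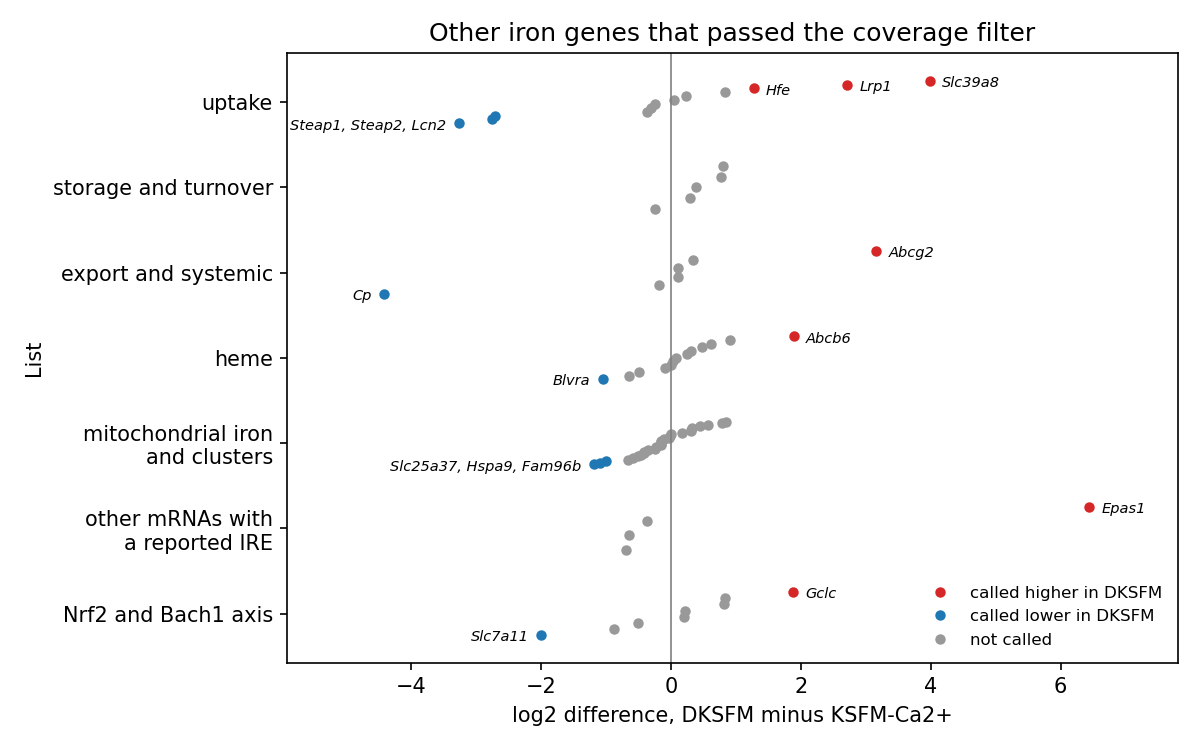
Log2 difference, DKSFM minus KSFM-Ca2+, of the 76 other iron genes that passed the coverage filter, in rows by list, with a point for each gene and names for those called. Of these genes, 7 were called higher and 9 lower, with *Epas1* (6.44) and *Cp* (-4.41) at the ends.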

How the data were processed

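Directional poly(A) libraries were sequenced by the authors as single reads, aligned to mm10 with STAR and quantified with Salmon, with DESeq2 for their own testing. The files the authors deposited hold a signal, the mean read coverage per base of each gene, not scaled to library size and written in steps of 0.1. How coverage was computed, and reads per gene, are not given in the sources used here, so no count model was used. Here coverage was scaled by trimmed means of M values without weights (trims 30% and 5%), which multiplied library totals by 0.991 to 1.013. Genes with at least 0.5 in at least 3 libraries were tested on log2(normalized coverage + 0.1) with limma 3.58.1 (R 4.3.3, intensity trend, Benjamini-Hochberg adjustment over all genes tested). Genes were called at an adjusted p under 0.01 and at least 2-fold. The procedure was tested on simulated data.

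The members and lists were chosen with earlier results of these data known. Genes named were all 10 members and, from each other list, the called genes whose mean reached 1 in either line, up to 4 per direction by size, or else the most abundant tested gene, and the 3 genes most like *Fth1* and *Tfrc*. Outside this rule, *Hfe*, *Steap4*, *Trf*, *Tfr2*, *Heph*, *Hephl1*, *Hamp*, *Ftmt*, *Nqo1*, *Pcbp1*, *Herc2*, *Tax1bp1* and *Fbxl5* were named after their values were seen. Surroundings and shared stretches were added after the values were seen. Gene positions came from RefSeq (GRCm38) and matched 12377 of 12409 tested genes. The values of 2 genes of the lists are not reported here.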

Additional observations from a re-analysis of the deposited data

How the results depend on the processing

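No log2 difference of the members or of 20 other iron genes named changed sign under the 12 alternatives that can move it. The ferritin ratio kept its sign under the 10 that can move it. The replicate block, the trend, the filters and the adjusted p leave these values as they are. Differences of markers, surrounding genes and the genes most like *Fth1* and *Tfrc* were not recomputed. The median over all genes tested did change sign, from -0.045 with quantile normalization to 0.023 with the combined libraries only. Members, or the ferritin ratio, that moved by more than the spread within a line, and counts that moved by over 1.5 times, follow, and the other iron genes were compared by direction and call. Quantile normalization gave -3.78 for *Fth1*, 1.13 for *Slc40a1* and -3.42 for the ratio of *Fth1* to *Ftl1*. *Slc40a1* was 0.87 with a pseudocount of 0.5 and 0.58 with 1, which follows from its low coverage. With 1, differences of other genes low in a line also shrank, to 5.64 for *Epas1*, 2.34 for *Abcg2*, 2.24 for *Lrp1*, 1.45 for *Abcb6* and -4.04 for *Cp*. With the combined libraries only, where the lone KSFM-Ca2+ library is assumed to vary like the DKSFM libraries, values were -3.68 for *Fth1*, -0.45 for *Ftl1*, -0.48 for *Ireb2*, 0.23 for *Steap3* and -0.18 for *Ncoa4*, and the cause was not tested. With these libraries 1641 genes were called higher and 988 lower. Genes called higher numbered 1032 with 0.5 required in every library, against 1636, because genes low in a line were then not tested. Of 339 values of 20 other iron genes named, *Hfe* aside, 331 kept their direction and call. *Fam96b* was under 2-fold in 7 alternatives and *Blvra* in 1. With each library left out in turn, *Fth1* ranged from -3.63 to -3.55 and *Tfrc* from -2.38 to -2.27. Same-numbered libraries did not deviate together (correlations -0.0051, 0.024 and -0.0061). A pairing that left no shared effect on coverage would not show in this way, and the labels do not say whether the numbers pair the libraries. With a replicate block, 1641 genes were called higher and 1304 lower, and of the other iron genes 6 higher and 9 lower, *Hfe* being the call lost. The 0.1 step limits what can be said of *Slc40a1*, *Hfe* and *Slc39a8*.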
